A study of Mus musculus with 4 samples.

Results

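Deleting p53 from LSK cells that already lacked Aspp1 was followed through the whole transcriptome by setting the Aspp1-/-p53-/- array against the Aspp1-/- array. A gene or transcript belonged to the comparison when its probe was well above background on both arrays, and 19290 of the 34826 on the array did, among them 13551 RefSeq genes. At least 2-fold lower in the absence of p53 were 186, and 157 were at least 2-fold higher. Those lower included p53 targets, immediate-early transcription factors with their feedback inhibitors, and genes of late granulocyte differentiation. LSK cells, the lineage(-) Sca-1(+) cKit(+) fraction of bone marrow that holds stem cells and multipotent progenitors, came from male C57BL/6 mice 12 weeks old. The Aspp1-/- mice carried intact p53 and no Mx1-Cre. The Aspp1-/-p53-/- mice were Mx1-Cre(+)Aspp1-/-p53flox/flox. Both received 5 injections of pIpC, a double-stranded RNA analogue, beginning at 8 weeks of age, and their cells were taken 4 weeks after that treatment. The sample labels give 401 μg for Aspp1-/- and 403 μg for Aspp1-/-p53-/- mice, where the series design gives 400 μg for every genotype. WT and Mx1-Cre(+)p53flox/flox (p53-/-) mice, treated likewise (400 and 402 μg by their labels), gave the matching comparison with Aspp1 present. Cells of 3 mice were pooled per genotype and hybridised to 1 array, so every difference below is a size with no spread between mice and no test.

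p53, encoded by Trp53, is a transcription factor that stressed cells stabilise, and it switches on genes for cell cycle arrest, apoptosis and its own degradation. Aspp1, encoded by Ppp1r13b, binds p53 and favours its action on apoptosis genes. In haematopoietic stem cells p53 is known to restrain self-renewal and cell division. The Mx1 promoter that drives Cre here responds to interferon, which pIpC induces, so recombination takes place in blood cells and in other tissues that respond to interferon.

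Processed signals, the background-subtracted fluorescence of a probe, are quoted in the order WT, Aspp1-/-, p53-/- and Aspp1-/-p53-/-. Differences are on the log2 scale after each array was set to its 75th percentile, a signal of 502, 523, 512 and 469. Between 50.3% and 53.2% of 55675 probes were well above background on each array, and no spot was saturated. The scanner's own error of a difference was about 0.20 for bright probes and larger for dim ones, and covers the array only. Both p53-deleted arrays lay in row 2 of the slide and both others in row 1. The effects of slide row, of Mx1-Cre and of p53 loss therefore cannot be told apart in any value given here. In pooled sorted cells, fewer cells of a type and less RNA per cell cannot be told apart either.

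The labels held on both arrays. Trp53 gave 730, 820, 164 and 169, a difference of −2.13 with a scanner error of 0.15 between Aspp1-/-p53-/- and Aspp1-/- cells. Its probe lies on chromosome 11 (69404204 to 69404263, plus strand, mm9); its place relative to the floxed exons is not given in the labels or files. Ppp1r13b gave 13182, 2247, 12759 and 2060, a difference of 0.03, and was low on both arrays compared. The paralogues of both genes, Trp63, Trp73, Trp53bp2 and Ppp1r13l, lay between −0.22 and 0.01. Of the genes that define the sort, Kit gave 17597, 18182, 18125 and 15995 (−0.03) and Ly6a, which encodes Sca-1, 3360, 3355, 3999 and 3676 (0.29). Of the lineage panel genes reported here, Cd3e was at −0.37, Cd5 at −0.22, Cd4 at −0.07 and Itgam at 0.12, and Cd8a was not well above background on any array. Ms4a1 passed background only on the Aspp1-/- array, at 33.6.

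Higher and lower genes differed in how bright they were. The geometric mean signal of the 2 arrays had a median of 89.4 for the genes at least 2-fold higher, 242 for those at least 2-fold lower and 861 for all measured genes. Among the 4823 brightest genes, with geometric mean signals of 4122 and above, 23 fell and 2 rose, and among the 4823 dimmest 71 fell and 119 rose. A further probe of the same gene, which shares the RNA and the array but not the probe, had the same sign for 35 of 39 lower genes (89.7%) and 23 of 29 higher genes (79.3%), against 62.3% of genes under 2-fold. Sizes were repeated less often, above all for rises. Further probes passed 2-fold in the same direction for 21 of the 39 lower genes and 5 of the 29 higher genes. Their median differences were −1.06 and 0.45. Over all measured genes the median difference was −0.002, 0.964% were at least 2-fold lower and 0.814% at least 2-fold higher, 1.78% in all, and 50.5% lay below 0 and 49.5% above. With normexp background correction and an offset of 50 in place of the software's own correction, a step that also shrinks differences of dim probes, 114 were lower and 62 higher, a lower share of 64.8% of calls against 54.2%. Gene lists are read against the shares given here.

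**Figure D1:**
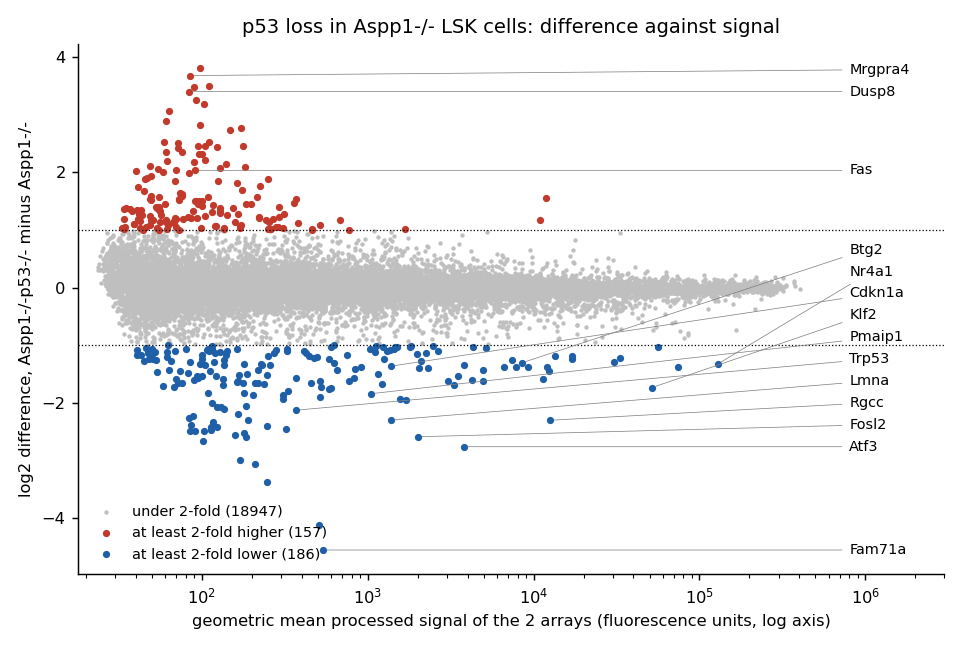
Log2 difference of Aspp1-/-p53-/- minus Aspp1-/- cells (vertical axis) against the geometric mean processed signal of both arrays in fluorescence units (horizontal log axis), 1 point per gene or transcript; dotted lines mark 2-fold. The 157 higher genes (red) lie mostly at dim signals, with a median of 89.4, and the 186 lower genes (blue) reach into the bright range, as with Klf2 and Nr4a1.

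p53 target genes were the list the deletion addresses directly. Of 59 listed targets 55 were measured, 5 fell at least 2-fold (9.09%) and 1 rose (1.82%), 37 lay below 0, and the median was −0.10. The falls were in targets for apoptosis, for arrest and for signalling. Pmaip1, which encodes the BH3-only protein Noxa, gave 2232, 2100, 1312 and 526, a difference of −1.84. Plk2, a polo-like kinase induced after DNA damage, gave 1867, 1432, 1138 and 419 (−1.61). Phlda3, an inhibitor of Akt, gave 1229, 1558, 686 and 538 (−1.38). Cdkn1a, which encodes the CDK inhibitor p21, gave 2531, 2345, 1551 and 819 (−1.36), and Btg2, an antiproliferative gene, 14143, 14095, 10540 and 5116 (−1.30). For Pmaip1, Plk2, Cdkn1a and Btg2 the array lacking both proteins was clearly the lowest of the 4, and the p53-/- array lay between it and the others. For Phlda3 both p53-deleted arrays were low. A further Cdkn1a probe gave −0.01, and the mean of both Cdkn1a probes did not pass 2-fold.

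By role, the 11 measured arrest genes had a median of −0.62 and 9 lay below 0, with Plk3 at −0.97, Zmat3, an RNA-binding target, at −0.68 and Sfn, which encodes 14-3-3 sigma, at −0.62. The 12 apoptosis genes had a median of −0.14. Among them Bcl2l11, which encodes Bim, was at −0.83, Bbc3, which encodes Puma, at −0.78 and Tnfrsf10b, a death receptor, at −0.45, and Bax was at −0.10. Bbc3 gave 4471, 3574, 2073 and 1870, low on both p53-deleted arrays. The 5 feedback genes ran from −0.23 for Mdm2, the ubiquitin ligase of p53, to 0.52 for Mdm4, its relative. The 27 genes of metabolism, redox control, repair and signalling had a median of −0.04, with 1 past 2-fold (Phlda3). Gdf15, a secreted stress factor, was at −0.45, Ddb2 and Xpc, both of nucleotide excision repair, at 0.04 and 0.00, and Sesn1 at 0.23. Fas, the death receptor, was the member that rose: it gave 67.4, 47.7, 54.0 and 175, a difference of 2.03 with an error of 0.19, high on the Aspp1-/-p53-/- array alone.

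Immediate-early and stress transcription factors, which cells induce within minutes of a stimulus and without new protein synthesis, lay mostly below 0. Of 51 listed genes 48 were measured, 14 fell (29.2%), 1 rose, 41 lay below 0 and the median was −0.69. Atf3, a stress-induced factor of the ATF family, gave 16562, 10504, 4890 and 1390, a 6.78-fold difference (−2.76). Fosl2, a subunit of AP-1, gave 7200, 5225, 3327 and 779 (−2.59). The arrays fell in the same order for both, with WT highest and the double mutant lowest. Egr2, a zinc finger factor of the early growth response family, gave 2240, 3526, 2466 and 822 (−1.94), so its other 3 arrays were all well above the double mutant. Nr4a1, an orphan nuclear receptor, gave 225342, 216026, 168038 and 77474 (−1.32), and Nr4a2 of the same family 7417, 6317, 4136 and 1950 (−1.54), with −1.79 by a further probe.

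The classes of early genes did not move alike. All 6 measured genes of the EGR and NR4A class, the corepressor gene Nab2 included, lay below 0 and 4 fell (median −1.43). Of 11 AP-1, ATF and small Maf genes 9 lay below 0 and 3 fell. Fos was at −0.88, Jun at −0.74 and Junb at −0.69, and Batf3 was at 0.77. Of 8 Kruppel-like factors 3 fell. Klf2, a factor of quiescence, gave 111203, 99751, 61743 and 26902 (−1.73), and Klf4 gave 19890, 20901, 14295 and 6229 (−1.59). Klf6 was at −1.37, and the other 5 lay between −0.33 and 0.13. Of the 23 remaining early genes 4 fell. Btg2, already counted among the p53 targets, fell furthest of them. Zfp36, which encodes an mRNA-destabilising protein, was at −1.25, Trib1, a pseudokinase, at −1.24 and Sgk1, a kinase, at −1.02. Arc, a neuronal early gene, rose at 1.22, and Myc was at 0.16. Besides the 6 largest of a list, members named here were picked after their values were seen.

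Feedback regulators of the pathways that induce early genes moved with them in part. Of 14 measured MAP kinase phosphatases and feedback inhibitors 3 fell and 12 lay below 0 (median −0.20). Dusp5, a phosphatase of ERK, gave 1464, 1166, 832 and 313 (−1.74). Spry1, an inhibitor of receptor tyrosine kinase signalling, gave 7361, 6281, 3801 and 1743 (−1.69), and Dusp10, a phosphatase of p38 and JNK, gave 327, 222, 129 and 83.1 (−1.26). Dusp8, a phosphatase of the same kind, was at 3.40 from a dim probe (31.6, 27.1, 12.5 and 257), which was not well above background on the p53-/- array. Of 23 measured NF-kB genes 6 fell and 17 lay below 0 (median −0.20). None of 4 measured subunits fell, though 3 lay below 0 (median −0.265). Of 9 inhibitors 2 fell, Tnfaip3 at −1.37 and Nfkbid at −1.19, and 6 lay below 0 (median −0.17). Of 10 targets 4 fell and 8 lay below 0 (median −0.62). Tnfaip3, the ubiquitin-editing enzyme A20, gave 20138, 13274, 8680 and 4610. The targets that fell were Cd83, a surface protein of activated dendritic cells (716, 600, 390 and 102, a difference of −2.40), the chemokine genes Ccl4 (−1.23) and Cxcl2 (−1.08), and the activation antigen Cd69 (−1.19).

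**Figure D2:**
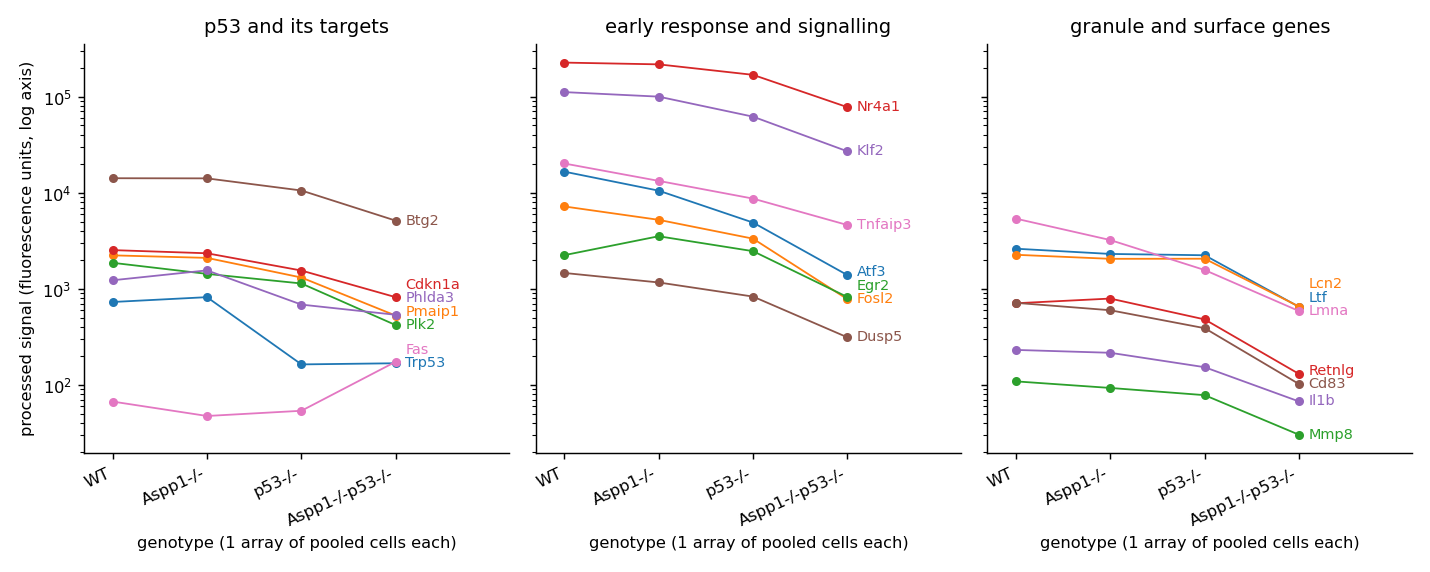
Processed signal in fluorescence units (vertical log axis) on the 4 arrays, 1 array of pooled cells per genotype (horizontal axis), for p53 and its targets, early response and signalling genes, and granule and surface genes; lines join 1 gene's values. Atf3 runs from 16562 in WT to 1390 in Aspp1-/-p53-/- cells, Fas is high on the last array only, and Trp53 is low on both p53-deleted arrays.

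To show what lies upstream of genes that fell, RefSeq promoter windows (GRCm38.p6, the 250 bases before an annotated start) were searched on both strands for 5 motifs. They were the AP-1 element TGACTCA, the CRE TGACGTCA, which CREB and ATF proteins bind, the CArG box of SRF, the Egr element GCGTGGGCG and a pair of p53 half-sites up to 13 bases apart. A CArG box stood in 5.45% of 110 windows of 81 lower genes, against 1.18% of windows of all measured genes and 1.47% of all windows. Those 6 windows belong to only 3 genes, Egr2 with 4 windows of which 3 overlap, Dusp5 and Zfp36, and per gene the shares were 3.70% and 1.41%. A CRE stood in 4.55% of windows of lower genes, against 2.51% of measured genes and 1.55% of all. AP-1 elements were in 2.73% against 3.25% and 4.46%, and Egr elements in 2 of the 110 windows, against 136 of 13590 and 0.536% of all. The p53 pair stood in 1 window of a lower gene, that of Cdkn1a, and in 0.0589% of windows of measured genes and 0.0639% of all. Of 61 windows of 51 higher genes, 1 held the p53 pair (Pard3, at 1.26), 3 an AP-1 element (4.92%), 1 a CRE, and none a CArG box or Egr element. These are matches of letters, counted as a description. Windows with a match from 6 of the lower genes are printed here, chosen after the differences were seen, with every matching motif in capitals; in Cdkn1a the capitals include the bases between the half-sites.

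The Cdkn1a window (chr17:29090729-29090978, plus strand) holds the p53 pair as matched by letters. Its first base lies 73 bases before the annotated start of this window, which need not be the gene's main start.
Cdkn1a: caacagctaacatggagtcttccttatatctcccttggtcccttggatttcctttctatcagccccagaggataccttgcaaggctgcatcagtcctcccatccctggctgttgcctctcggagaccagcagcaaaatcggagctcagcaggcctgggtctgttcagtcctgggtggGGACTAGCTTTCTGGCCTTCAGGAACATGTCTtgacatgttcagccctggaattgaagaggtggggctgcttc
The windows of Egr2 (chr10:67537316-67537565, plus strand), Dusp5 (chr19:53528895-53529144, plus strand) and Zfp36 (chr7:28379229-28379478, minus strand) hold CArG boxes, Dusp5 a pair of them side by side.
Egr2: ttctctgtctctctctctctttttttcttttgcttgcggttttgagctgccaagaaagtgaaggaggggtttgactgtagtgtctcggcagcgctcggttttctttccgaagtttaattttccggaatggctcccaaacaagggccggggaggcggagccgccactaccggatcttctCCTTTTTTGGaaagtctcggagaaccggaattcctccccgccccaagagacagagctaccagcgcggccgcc
Dusp5: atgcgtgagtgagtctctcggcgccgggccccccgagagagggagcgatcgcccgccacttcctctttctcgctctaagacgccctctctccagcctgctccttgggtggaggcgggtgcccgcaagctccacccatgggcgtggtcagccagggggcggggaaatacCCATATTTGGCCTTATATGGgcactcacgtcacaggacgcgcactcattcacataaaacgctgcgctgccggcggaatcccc
Zfp36: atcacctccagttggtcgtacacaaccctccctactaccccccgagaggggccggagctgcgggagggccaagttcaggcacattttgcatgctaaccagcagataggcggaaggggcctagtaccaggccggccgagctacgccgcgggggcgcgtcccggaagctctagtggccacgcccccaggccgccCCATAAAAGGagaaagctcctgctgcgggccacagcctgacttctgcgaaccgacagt
The windows of Plk2 (chr13:110394794-110395043, plus strand) and Btg2 (chr1:134079156-134079405, minus strand) hold a CRE.
Plk2: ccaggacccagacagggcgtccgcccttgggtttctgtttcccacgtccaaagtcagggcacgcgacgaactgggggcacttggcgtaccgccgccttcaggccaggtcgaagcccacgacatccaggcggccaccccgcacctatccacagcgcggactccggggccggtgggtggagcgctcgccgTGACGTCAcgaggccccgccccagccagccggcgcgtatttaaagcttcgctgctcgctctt
Btg2: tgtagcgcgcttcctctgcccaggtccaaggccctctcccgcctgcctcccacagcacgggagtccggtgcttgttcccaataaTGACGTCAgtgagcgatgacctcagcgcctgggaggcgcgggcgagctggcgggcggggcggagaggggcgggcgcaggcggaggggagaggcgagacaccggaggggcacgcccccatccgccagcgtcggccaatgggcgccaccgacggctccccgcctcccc

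Among markers of other cell types, granulocyte genes had the most members that fell, and their classes parted. Of 40 listed genes 31 were measured, 13 fell (41.9%), none rose and the median was −0.22. With normexp and its offset 8 fell. Of 9 genes of secondary and tertiary granules 7 fell, with a median of −1.43. Ltf, which encodes lactoferrin, gave 2617, 2308, 2237 and 649 (−1.67), Lcn2, a siderophore-binding protein, 2263, 2053, 2059 and 654 (−1.49), and Camp, the cathelicidin, 9124, 8579, 9293 and 2861 (−1.43, with −1.43 by a further probe). For all 3 the other arrays lay close together and the double mutant alone was low. Mmp8, a collagenase, was at −1.46 and Itgb2l, an integrin chain, at −1.44. Of 12 genes classed as cytosolic and surface, a class that also holds secreted products, 6 fell. Among them were Retnlg, a secreted resistin-like protein, which gave 709, 793, 481 and 130 (−2.45), Il1b (−1.53) and S100a8, a part of calprotectin, at −1.38.

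None of the 10 genes of primary granules and early granulocytes fell, and their median was 0.11. Mpo, which encodes myeloperoxidase, gave 135026, 125067, 139876 and 122623 (0.13), Elane, which encodes neutrophil elastase, was at 0.16 and Ctsg, which encodes cathepsin G, at 0.36. Ly6g, part of the lineage panel, was at −0.05. The summed signal of the measured granulocyte list was 430656, 405693, 432342 and 340158, and that of secondary and tertiary granule genes 25543, 24093, 24617 and 11843. The other 9 listed genes were not well above background on both arrays; Mmp9, Fpr1, Fpr2 and Cd177, for example, were so on the Aspp1-/- array and not on the double mutant's. The part of granulocyte transcripts in the falls of early, NF-kB and other genes was not tested.

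Most other lists of cell type markers moved little or the other way, while stromal and endothelial genes lay lower. Of 17 B-lineage genes 14 lay above 0, none passed 2-fold, and the median was 0.37. Igll1, of the surrogate light chain, gave 291, 211, 397 and 348 (0.88), and Rag1, of the V(D)J recombinase, 148, 96.4, 166 and 133 (0.62). On both, the Aspp1-/- array was the lowest of the 4. Over the 17 genes, Aspp1-/- minus WT had a median of −0.29 and Aspp1-/-p53-/- minus p53-/- of −0.20. Their summed signals before scaling were 76839, 67617, 77485 and 66350. Monocyte, macrophage and dendritic cell genes lay above 0 in 16 of 20 (median 0.15), with Ly86 at 0.85, F13a1 at 0.82 and Ccr2, the monocyte chemokine receptor, at 0.80. Klf4 and Vcam1, which that list shares with others, fell. T and natural killer cell genes had a median of −0.08 with Cd28, a costimulatory receptor, at −1.90 (1522, 1056, 673 and 254). Erythroid (0.05), megakaryocyte (−0.05) and mast cell (−0.08) medians were under 0.1 in size. Of 14 stromal and endothelial genes 11 lay below 0, with a median of −0.20, a sign that turned when dim probes were let in. Cxcl12, the ligand of Cxcr4 that keeps stem cells in their niche, gave 178, 110, 71.4 and 36.5 (−1.43), and Vcam1, the adhesion molecule, 176, 108, 112 and 39.9 (−1.27).

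Immunoglobulin kappa transcripts lay lower, unlike the B-lineage list. They were singled out after the values were seen, because chromosome 6 held 27 lower genes or transcripts of 1008 and no other chromosome more than 15. Of those 27, only 9 were kappa transcripts by the descriptions in the files, so kappa makes up a part of that count. By the descriptions in the files, 26 kappa transcripts between 67560270 and 70676751 (mm9) were measured, 9 fell, none rose, and the median was −0.67. The kappa constant region gave 15571, 21608, 9531 and 7106 (−1.45), low on both p53-deleted arrays. Variable segment 15-103 gave 2357, 2231, 566 and 115 (−4.12). Of the 9 that fell, 5 were at least 2-fold higher on the Aspp1-/- array than on the WT and p53-/- arrays. Among them, segments 2-116 and 1-133 gave 72.9, 654, 61.5 and 169, and 92.1, 957, 68.6 and 280, so they were high on the Aspp1-/- array and their differences of −1.80 and −1.62 start from there. Of 29 heavy chain transcripts on chromosome 12, 2 fell and 1 rose (median −0.35), and the constant mu region was at −0.70. Variable segments have near-identical copies, so single segments are uncertain. With Aspp1 present, 11 of 23 kappa transcripts measured on 4 arrays fell and 1 rose (median −0.74).

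**Figure D3:**
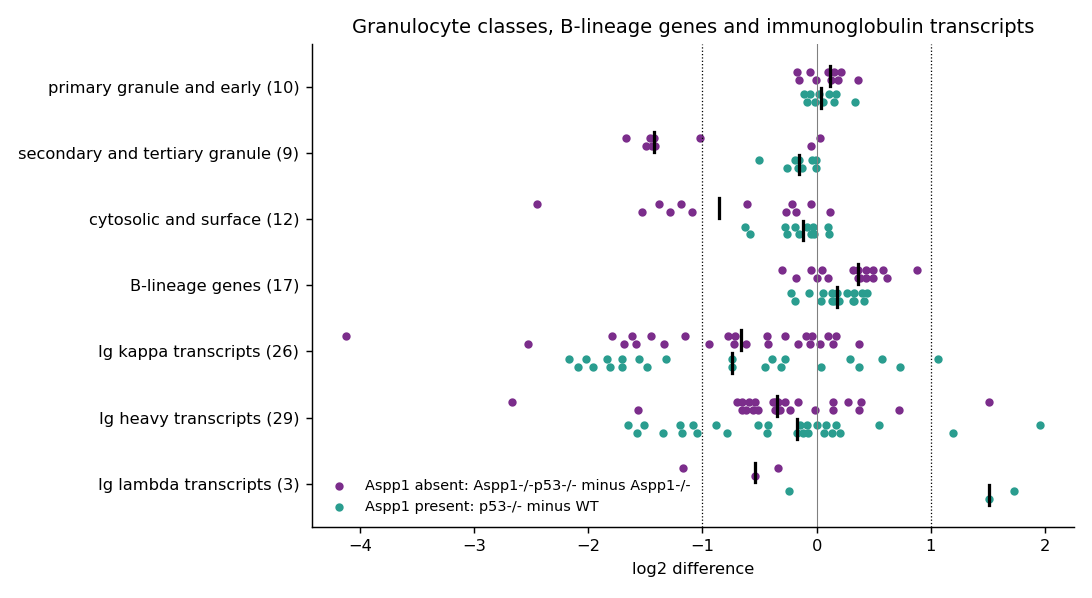
Log2 differences (horizontal axis) for p53 loss with Aspp1 absent (purple) and present (green), 1 point per gene or transcript and black bars at medians; the number measured with Aspp1 absent is in brackets, and green points need all 4 arrays. Secondary and tertiary granule genes have medians of −1.43 with Aspp1 absent and −0.15 with it present, and kappa transcripts of −0.67 and −0.74.

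None of 47 measured haematopoietic stem cell genes passed 2-fold, and their median was −0.05. They ran from −0.79 for Myct1 to 0.49 for Mycn, with Hlf at −0.17, Mecom at −0.08, Meis1 at −0.01 and Hoxa9 at 0.36. Lymphoid-primed progenitor genes had a median of 0.07 with none past 2-fold. Of 27 quiescence genes and CDK inhibitors 4 fell, and all 4 are counted above: Klf2, Nr4a1, Btg2 and Cdkn1a. The other 7 measured members of the CDK inhibitor class lay between −0.29 for Cdkn1c, which encodes p57, and 0.19 for Cdkn2c. Of 37 G2/M and mitosis genes 30 lay above 0 (median 0.10), the largest being Mad2l1, of the spindle checkpoint, at 0.24 (1.18 on average by 2 further probes) and Aurkb, a mitotic kinase, at 0.24. The median was −0.05 for G1/S genes and 0.02 for DNA damage and repair genes, and no member of either list passed 2-fold.

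Interferon response genes were higher as a group. Of 52 measured, 47 lay above 0, 1 rose past 2-fold, none fell, and the median was 0.25. Ifit3, an antiviral effector, gave 117, 87.8, 276 and 165 (1.07), and Mx1, the gene whose promoter drives Cre in these mice, gave 357, 284, 564 and 497 (0.96). Irf7, the master regulator of type I interferon responses, was at 0.81 and Isg15, a ubiquitin-like modifier, at 0.53. Both p53-deleted arrays were above both others for these 4 genes, and Mx1-Cre was carried by the same mice.

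**Figure D4:**
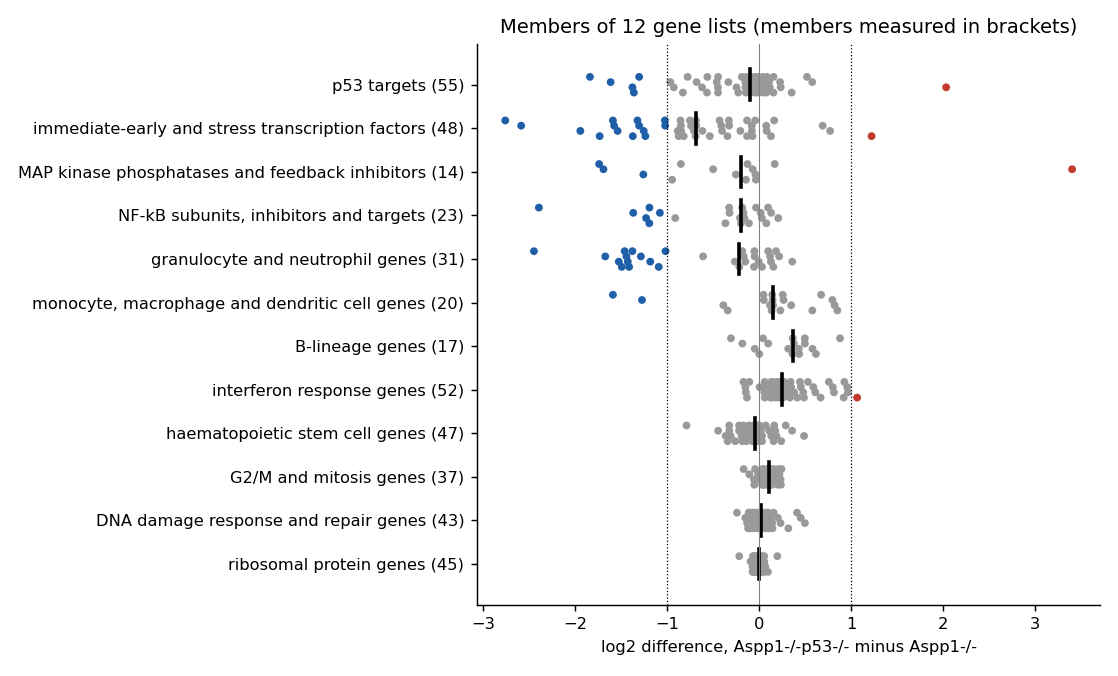
Log2 difference of Aspp1-/-p53-/- minus Aspp1-/- cells (horizontal axis) for the measured members of 12 gene lists, 1 point per gene, with medians as black bars and members at least 2-fold lower in blue or higher in red. Immediate-early genes have a median of −0.69 and 14 members past 2-fold on the low side, stem cell genes a median of −0.05 and none.

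Of the remaining lists, few members passed 2-fold. Notch pathway genes had a median of 0.00, and Jag2, a ligand, gave 1479, 1131, 702 and 377 (−1.43), and Nrarp, a feedback inhibitor, 271, 230, 236 and 81.2 (−1.35). Stress response genes of the integrated stress and unfolded protein pathways had a median of −0.16, with Chac1, which degrades glutathione, at −1.20 and Ddit3, which encodes Chop, at −0.96. Of 16 nuclear lamina genes 13 lay below 0 and only Lmna, which encodes the A-type lamins, fell (5376, 3220, 1570 and 587, a difference of −2.30). Among 25 clustered histone genes H2ac18 (−1.37) and H2bc4 (−1.24) fell, and the median was −0.08. Ribosomal protein genes were tight around 0 with a median of 0.00, between −0.22 for Rps15 and 0.20 for Rpl4. Oxidative phosphorylation, antioxidant, chaperone, Hippo, MYC network, chromatin and cytokine receptor lists had medians between −0.06 and 0.00. BCL2 family (0.01), death receptor (−0.01), adhesion (−0.02) and lymphocyte activation (−0.09) lists had medians near 0. In the BCL2 family list Pmaip1 fell, in the death receptor list Fas rose and in the Hippo list F3 fell (−2.39). In the adhesion list 2 of 29 fell, Cxcl12 and Vcam1, and in the lymphocyte activation list 3 of 21, Cd83, Cd28 and Cd69.

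The largest single falls were spread over several functions. Fam71a, a gene known mainly from testis, fell furthest: 2578, 2748, 1624 and 105, a 23.5-fold difference (−4.55, error 0.22). Its probe lies 8.08 kb from that of Atf3 on the same strand of chromosome 1 (Fam71a 192986463 to 192986522, Atf3 192994547 to 192994606, minus strand, mm9). Rgcc, a regulator of the cell cycle induced by p53 and complement, gave 36103, 29539, 14239 and 5373 (−2.30). F3, which encodes tissue factor, gave 288, 209, 129 and 35.8 (−2.39), and Apold1, an endothelial early gene, 229, 194, 89.5 and 36.2 (−2.27, with −1.30 by a further probe). Mybpc3, Apol8 and Pabpn1l were lowest on the double mutant array, at −2.56, −2.48 and −1.87, and with Aspp1 present they were at −0.46, −0.86 and −0.24.

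A few of the largest falls rest on the Aspp1-/- array. Nxpe2 gave 47.6, 303, 53.8 and 50.8 and Adcy3, an adenylyl cyclase, 59.1, 281, 62.8 and 60.1, so only that array was high behind differences of −2.42 and −2.07. Paqr6 was alike (51.5, 212, 64.9 and 34.1), and a further probe gave −0.43. Of 181 lower genes measured on 4 arrays, the double mutant was at least 2-fold below each other array for 68, and the Aspp1-/- array was at least 2-fold above WT and p53-/- for 24. Of 125 higher genes, the double mutant was at least 2-fold above each other array for 55 and the Aspp1-/- array at least 2-fold below WT and p53-/- for 2.

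The largest rises came from dim probes and no common function. Mrgpra4, a sensory neuron receptor, gave 35.8, 24.9, 14.3 and 287 (3.68), Mageb1, a testis antigen, 34.7, 34.4, 38.3 and 350 (3.50), and Olfr700, an olfactory receptor, 49.3, 38.7, 39.5 and 245 (2.82). Mylk, which encodes myosin light chain kinase, gave 102, 79.7, 72.1 and 392 (2.45), and a further probe did not follow, at −0.40. All 4 were high on the double mutant array alone. Slc17a8, a vesicular glutamate transporter (48.7, 47.0, 149 and 231, a difference of 2.45), and Trim69, a ubiquitin ligase (37.5, 44.1, 138 and 157, a difference of 1.99), were high on both p53-deleted arrays.

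The same deletion with Aspp1 present, p53-/- minus WT, used the other 2 arrays, and both comparisons share slide row and Mx1-Cre. Of 19003 genes measured on 4 arrays, 0.537% were at least 2-fold lower and 0.537% higher in p53-/- cells, against 0.952% and 0.658% in the Aspp1-null comparison. Lower in both were 37, which is 20.4% of the 181 lower without Aspp1 and 36.3% of the 102 lower with it. Without Trp53, the deleted gene, 36 remained. Transcripts with overlapping coordinates, such as those on chromosome 8, were counted apart, so not all of these are separate falls. Higher in both were 10, or 8.00% of 125 and 9.80% of 102. Across the 19003 genes, which are not independent replicates, Pearson's r between the comparisons was 0.37 and Spearman's rho 0.34. With a signal of at least 100 on each array r was 0.49 over 15293 genes.

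The genes lower in both included Trp53, Atf3, Fosl2, F3, Rgcc, Lmna, Apold1, Cd28, Jag2, Tnfaip3, Dusp10, Cxcl12 and Chac1. The fall was the larger with Aspp1 absent for 31 of the 37, with medians of −1.63 and −1.30. Fosl2 was at −2.59 without Aspp1 and −1.14 with it, Atf3 at −2.76 and −1.79, and Lmna at −2.30 and −1.80. Trp53 itself was at −2.13 and −2.18, and Chac1 at −1.20 and −1.30. After scaling, the Aspp1-/-p53-/- array was the lowest of the 4 for 33 of the 37. The 2-fold rule already kept WT and Aspp1-/- from being lowest, so this count is no separate result. Over all 19003 genes measured on 4 arrays, differences had a standard deviation of 0.31 without Aspp1 and 0.26 with it. Genes higher in both included Ifit3, Trim69 and Slc17a8.

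List by list, the values of both comparisons were as follows. Immediate-early genes had a median of −0.69 without Aspp1 and −0.33 with it, 14 members fell in the first and 4 in the second, and 35 of 48 lay lower in the first. EGR and NR4A genes had medians of −1.43 and −0.37, and Egr2 was at −1.94 and 0.11. Kruppel-like factors had medians of −0.23 and −0.40, with 4 of 8 lower in the first, and MAP kinase phosphatases and feedback inhibitors of −0.25 in both over the 13 measured on 4 arrays. Secondary and tertiary granule genes had medians of −1.43 and −0.15, with 7 and 0 falls; Ltf was at −1.67 and −0.26. p53 targets had medians of −0.10 and −0.08 over 54 genes, with 5 falls without Aspp1 and 1, Bbc3, with it. Arrest targets had medians of −0.62 and −0.35 and apoptosis targets of −0.14 and −0.30. Bbc3 was at −0.78 and −1.14, Pmaip1 at −1.84 and −0.80, and Fas at 2.03 and −0.35. Interferon genes had medians of 0.25 and 0.18 and B-lineage genes of 0.37 and 0.18. With 1 array per genotype, none of these differences between comparisons was tested.

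**Figure D5:**
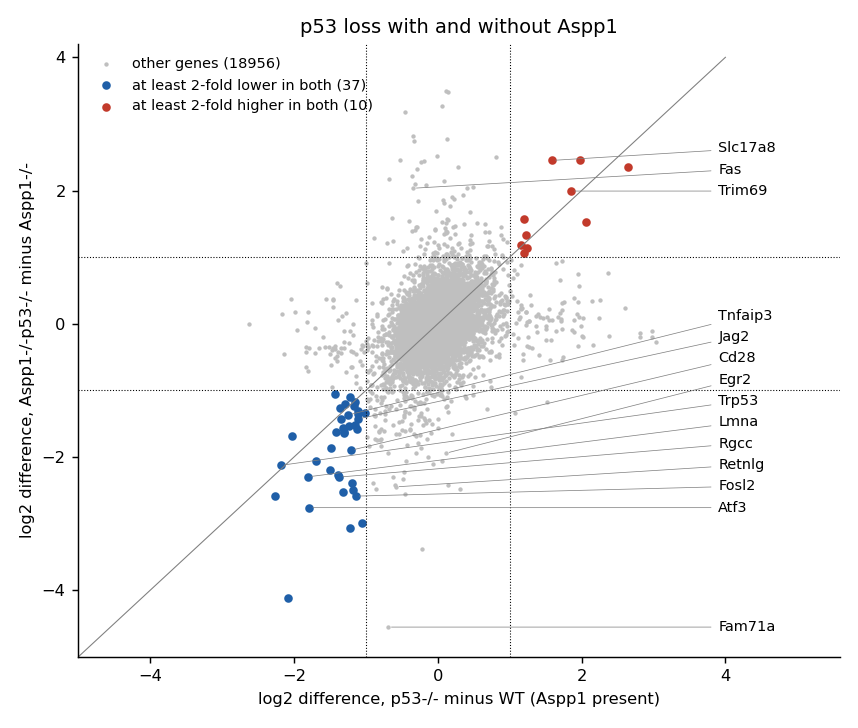
Log2 difference for p53 loss with Aspp1 present (horizontal axis) and absent (vertical axis) for 19003 genes measured on 4 arrays; dotted lines mark 2-fold, the diagonal marks equal differences, and colours mark genes past 2-fold in both. Of the 37 lower in both, 31 have the larger fall with Aspp1 absent, while Fam71a is at −4.55 and −0.70 and Egr2 at −1.94 and 0.11.

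Probes well above background on only 1 of the 2 arrays lie outside the rule and give bounds, in which the dim side is set to its own signal or to the lowest one above background on that array, whichever is higher. They covered 740 genes or transcripts on the high side, 515 of them with a bound of at least 2-fold, and 1471 on the low side, 228 of them so. Sat2, a relative of spermidine acetyltransferase, gave 17.3, 16.1, 915 and 789 and was at least 43.5-fold higher. Its probe lies 33.1 kb from that of Trp53. Rbfox3, a neuronal splicing factor, Myt1l, a neuronal transcription factor, Il2ra, the interleukin-2 receptor alpha chain, and Foxe3 were at least 24.7-fold, 24.4-fold, 21.4-fold and 20.6-fold higher, and for these the double mutant array alone was bright. Chrng, an acetylcholine receptor subunit, was at least 11.6-fold lower and Emx2os, an antisense transcript, at least 11.3-fold, both bright on the Aspp1-/- array alone. Within 100 kb of the Trp53 probe 10 other RefSeq genes were measured and none passed 2-fold. Atp1b2, whose probe lies 9.05 kb away, was at −0.51 here and −1.44 with Aspp1 present, and the other 9 ran from −0.39 for Cd68 to 0.06 for Mpdu1.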

How the data were processed

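Each sample was 1 Agilent 1-colour array. Spot intensity values, deposited as scanner output of Feature Extraction 10.7.3.1, had been background-subtracted and detrended by that software, per the file headers, which give the build mm9. Other values used were the flags of 0 or 1 per spot that the same deposited files hold, for signals well above background, saturated or outlying. The deposited value table holds log2 values that matched the scanner values apart from a constant per array and a centring of each probe; what constant the authors used is not stated in labels or headers.

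Control spots and outlier spots were left out and spots of a probe averaged. Each array's 75th percentile was subtracted on the log2 scale, and the probe of highest mean signal among those well above background on both arrays stood for a gene. Probes were named through RefSeq, 26760 by accession and 4457 by symbol. With 1 array per genotype there is no test, and a difference of at least 2-fold is a rule of size. Named genes were the deleted genes and their paralogues, 20 named genes each way by size of difference, up to 6 past 2-fold per list or else the 2 of largest size, all p53 targets, and 5 bounds each way. The members and the 38 gene lists were chosen with earlier results of these data known. Calculations used Python 3.11.15, pandas 2.3.3, numpy 2.4.6, scipy 1.17.1, matplotlib 3.10.9 and limma 3.58.1, and the calculation of differences was tested on simulated data. A lineage panel result is not reported here. Alternatives were background correction by normexp with an offset of 50, scaling, filters on dim probes, the rule for probes, the rule of size and the value table.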

Additional observations from a re-analysis of the deposited data

Results flagged for a closer look

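A pair of immunoglobulin transcripts went in opposite directions past 2-fold when p53 was lost without and with Aspp1, and the difference was not tested, since each genotype has 1 array. Immunoglobulin lambda constant 2, on chromosome 16, was at −1.17 without Aspp1 and 1.51 with it, from signals of 376, 1189, 1096 and 473 in WT, Aspp1-/-, p53-/- and Aspp1-/-p53-/- cells. Immunoglobulin kappa variable 1-132, on chromosome 6, was at −1.33 and 1.07, from signals of 50.7, 383, 108 and 136. The Aspp1-/- array was the highest of the 4 for both.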

How the results depend on the processing

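The counts of genes at least 2-fold higher (157) and genes at least 2-fold lower (186) depended on the treatment of dim probes. They were 62 and 114 with normexp background correction and its offset of 50, whose parts were not tried apart, among them 61 and 113 of the genes counted in the report. They were 37 and 102 with a signal of at least 100 on both arrays (15403 genes), and 1885 and 1292 with no filter (34826 genes), where 40.7% of the calls were lower. A size rule of 1.5-fold gave 549 and 557, and one of 3-fold 51 and 70. Median centring, quantile normalization, probes well above background on 4 arrays, the mean over probes and the value table kept both counts within 1.5 times. Of 69 named genes past 2-fold, 55 stayed past it under every one of these alternatives that measures them, leaving the rule of size aside. A signal of at least 100 measured only 34 of the 69 and the filter on 4 arrays 62. Both filters mainly drop genes and leave the values unchanged, so they say little about the genes kept and nothing about those dropped. Normexp took 13 below it: Slc44a1, Kynu, Ifnk, Dusp10, Cxcl2, Il1b, Mmp8, Itgb2l, Vcam1, Cxcl12, Ifit3, Nrarp and Chac1. The mean over probes took Cdkn1a. The median of the stromal and endothelial list turned from −0.20 to 0.12 with no filter, over 25 genes in place of 14, and that of the granulocyte list moved from −0.22 to −0.92 over 40. Apart from the change in the number of genes, the cause was not tested. No paired analysis was possible because each genotype has 1 array. No replicate could be left out for the same reason, and dim signals limit the rises most.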
